A study of Mus musculus with 18 samples.

Results

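The 44 genes described here encode proteins that carry a cell through G2 phase and mitosis, and they were measured in the external granule cell layer (EGL) of newborn mice. They were chosen by symbol, and the probe of highest mean log2 signal stood for each gene. A named probe was found for 40 of the 44 genes, of 17711 named genes on the array, and 28 of these probes were among those bright enough to be tested. Ccnb1, Mki67, Cenpf and Kif20a had no probe with that symbol in the annotation used here and were not analysed.

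The EGL is the outer sheet of the newborn cerebellum in which granule cell precursors divide. The layer was dissected from 9 Ts1Cje mice and 9 euploid mice at P0 (postnatal day 0), and RNA of each mouse was hybridized to its own Illumina Mouse-6 v1.1 bead array. Ts1Cje mice carry an extra copy of a distal segment of mouse chromosome 16, translocated onto chromosome 12 with loss of a short chromosome 12 segment, so the genotype comparison holds both changes; the euploid mice had the usual 2 copies. Both groups had the strain label B6EiC3SnF1/J A/a and came from the same 3 litters of 6, each with 3 Ts1Cje and 3 euploid mice on a slide of its own; a litter effect and a slide effect cannot be told apart. For 2 euploid mice of litter 2 (euploid 5 and 6) the source name reads cerebellum while the tissue field names the EGL.

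At the entry into mitosis, cyclin-dependent kinase 1 with its A- and B-type cyclins starts chromosome condensation and spindle assembly, helped by the Polo-like and Aurora kinases. The spindle checkpoint then holds the cell until every kinetochore is attached, after which the anaphase-promoting complex with Cdc20 releases the sister chromatids and the midzone and contractile ring part the daughter cells. In the newborn EGL these genes are used by granule cell precursors, which are known to divide in response to Sonic hedgehog, and less by the granule neurons that have left the cycle.

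Many of these genes are known to be read through 2 short promoter elements, the cell cycle genes homology region (CHR, TTTGAA or the variant form TTTAAA), which the MuvB complexes bind, and the CCAAT box, which NF-Y binds. Sequences of the bases before the transcription start came from RefSeq (GRCm38.p6) and were found for 37 of the 44 genes, in 40 windows of 250 bases, and both strands were searched. A CHR was present in 55.0% of the windows, against 25.2% of 32851 windows of all genes, and a CCAAT box in 77.5%, against 33.8%. Both elements were present in 47.5% of the windows, against 8.78% of all windows, and more than 1 CCAAT box in 45.0%, against 10.1%. An E2F site, searched as TTGGCGC and also as TTCGCGC, further as TTCCCGC and last as TTGCCGC, was present in 15.0%, against 7.89%. Each element was counted without regard to the others, TTTAAA reads the same on both strands, and a match describes letters, not a bound site.

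The last 120 bases before the start are shown as examples for 6 genes. These are the genes that both passed the litter test described further on and held a CHR and a CCAAT box within that stretch. The CHR (TTCAAA where it lies on the other strand) and the CCAAT box (ATTGG where it lies on the other strand) are in capitals. The stretches are chr4:118437344-118437463 (minus strand) for Cdc20, chr7:80294356-80294475 (plus strand) for the second RefSeq start of Prc1, chr7:122159315-122159434 (plus strand) for Plk1, chr7:127042421-127042540 (minus strand) for Kif22, chr10:69352913-69353032 (minus strand) for Cdk1 and chr11:99024190-99024309 (minus strand) for Top2a.
Cdc20: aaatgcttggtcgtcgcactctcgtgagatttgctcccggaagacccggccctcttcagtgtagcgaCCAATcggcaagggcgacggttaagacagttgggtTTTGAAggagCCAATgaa
Prc1: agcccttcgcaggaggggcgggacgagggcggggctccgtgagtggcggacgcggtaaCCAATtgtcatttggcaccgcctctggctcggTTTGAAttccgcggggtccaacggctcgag
Plk1: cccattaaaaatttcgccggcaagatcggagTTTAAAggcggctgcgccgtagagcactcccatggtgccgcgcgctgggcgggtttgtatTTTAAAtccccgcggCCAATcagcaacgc
Kif22: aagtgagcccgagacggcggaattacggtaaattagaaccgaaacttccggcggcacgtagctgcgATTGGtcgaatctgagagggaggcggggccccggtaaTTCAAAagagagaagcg
Cdk1: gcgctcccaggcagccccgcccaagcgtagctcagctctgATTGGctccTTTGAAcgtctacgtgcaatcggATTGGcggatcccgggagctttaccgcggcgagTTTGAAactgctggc
Top2a: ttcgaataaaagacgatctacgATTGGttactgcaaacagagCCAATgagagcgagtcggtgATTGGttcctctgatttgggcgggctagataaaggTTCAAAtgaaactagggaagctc
In each of the 6 stretches a CHR began within 30 bases of the start. It began 18 bases before the start in Cdc20, 30 in Prc1, 29 in Plk1, 17 in Kif22, 15 in Cdk1 and 23 in Top2a. The 6 were chosen for elements close to the start, so these distances do not describe the other genes. Among those past the litter test, the nearest CHR began 103 bases before the start in Kif2c, 145 in Smc2 and 220 in Birc5. The window of the other RefSeq start of Prc1 held no CHR. Top2a held 3 CCAAT boxes in this stretch, at 98, 78 and 58 bases before the start, and 6 in the whole window. Neither element was found in the windows of Nusap1, Ncaph, Mad2l1 and Anln, 4 of the 17 genes with a window that passed the litter test. The share of windows with both elements was 38.9% for genes past the litter test (18 windows), 42.9% for tested genes not past it (7 windows) and 60.0% for the genes under the filter or unnamed (15 windows).

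The deposited values were log2 signals scaled to the same mean on every array (6.69), with an SD over probes of 1.46 to 1.63, and pairs of arrays correlated at 0.981 to 0.995. Arrays give no read depth, so the number of mice limits the precision. The 10 three-copy genes used to check the labels were already listed by the paper as over-expressed in Ts1Cje mice on these arrays. They can therefore show only that the genotypes were read as the paper read them, and are no independent check. All 10 were higher at an unadjusted limma p under 0.05, against 3.09% of all tested probes, and 8 passed after adjustment. Their median log2 difference was 0.43. The mean level over these genes spanned 9.92 to 10.14 among Ts1Cje animals, clear of the 9.40 to 9.72 among euploid animals. Levels of different genes are not set against each other here, because probes differ in brightness.

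Of the 40 named probes, 12 fell under the brightness filter and were not tested. They were the cyclins Ccna2 and Ccnb2, the kinases Bub1, Ttk and Nek2, the kinetochore protein gene Cenph, the spindle motor gene Kif11, the cytokinesis genes Ect2 and Racgap1, and the anaphase genes Ube2c, Pttg1 and Espl1. Their mean log2 signals ran between 5.58 and 7.09, and 6 of the 12 lay below 5.98, the median of all probe means on the array. The filter ended between Pttg1 and Cenph, with means of 7.09 and 7.07, and Plk4, the dimmest tested gene, with 7.30. Their Ts1Cje minus euploid log2 differences lay between -0.04 and 0.10, a range that says little where a probe is near background. Ccna2, the S and G2 phase cyclin, had a mean of 5.93, below that median, with a lowest, median and highest signal of 5.77, 5.99 and 6.06 in Ts1Cje mice and 5.74, 5.92 and 6.07 in euploid mice.

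The first question was whether the mitosis genes differed between Ts1Cje and euploid layers. None of the 28 tested genes passed an adjusted p of 0.05 (limma, Benjamini-Hochberg over all tested probes; lowest adjusted p among them 0.998), where 0.336% of all tested probes did. None was past an unadjusted p of 0.05 either, against 3.95% of all tested probes (3.09% higher in Ts1Cje mice and 0.858% lower). Had a difference been found, a change in the number of dividing cells and a change in RNA per cell could not be told apart in dissected layers.

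The median Ts1Cje minus euploid log2 difference was -0.03 over the 28 genes and 0.02 over all tested probes. Of the 28 genes 21 (75.0%) were lower in Ts1Cje mice, against 43.2% of all tested probes. The genes vary together between mice, so these are not 28 separate results. The count also depended on using only the brightest probe of each gene. When every probe of a gene was averaged, dim ones included, 17 of the 28 were lower and the median was -0.02. Further tested probes of genes counted as lower differed by 0.03 (Cdc25c), 0.04 and 0.06 (Cdc20), 0.07 (Kif4) and 0.13 (Top2a). Those of Birc5 differed by 0.03 and -0.0016. With the brightest probes, the single genes ran between -0.18 for Plk4 and 0.13 for Smc4, ratios of 0.880 and 1.10. All 28 of the 95% intervals held 0 in this fit, which has no litter term, so the intervals also hold the spread between litters. The widest was that of Kif23, with ratios of 0.587 to 1.38 (difference -0.15), and the ends of the other 27 lay between ratios of 0.774 and 1.26. In no gene were all Ts1Cje mice above or below all euploid mice. The litters did not shift together, and the median depended on which were included. Without litter 3 it was 0.02, with 11 of the 28 genes lower in Ts1Cje mice, without litter 2 it was -0.12, with 25 lower, and without litter 1 it was -0.0022, with 15 lower. Without the 2 euploid mice whose source name reads cerebellum it was -0.10, with 23 lower.

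**Figure D1:**
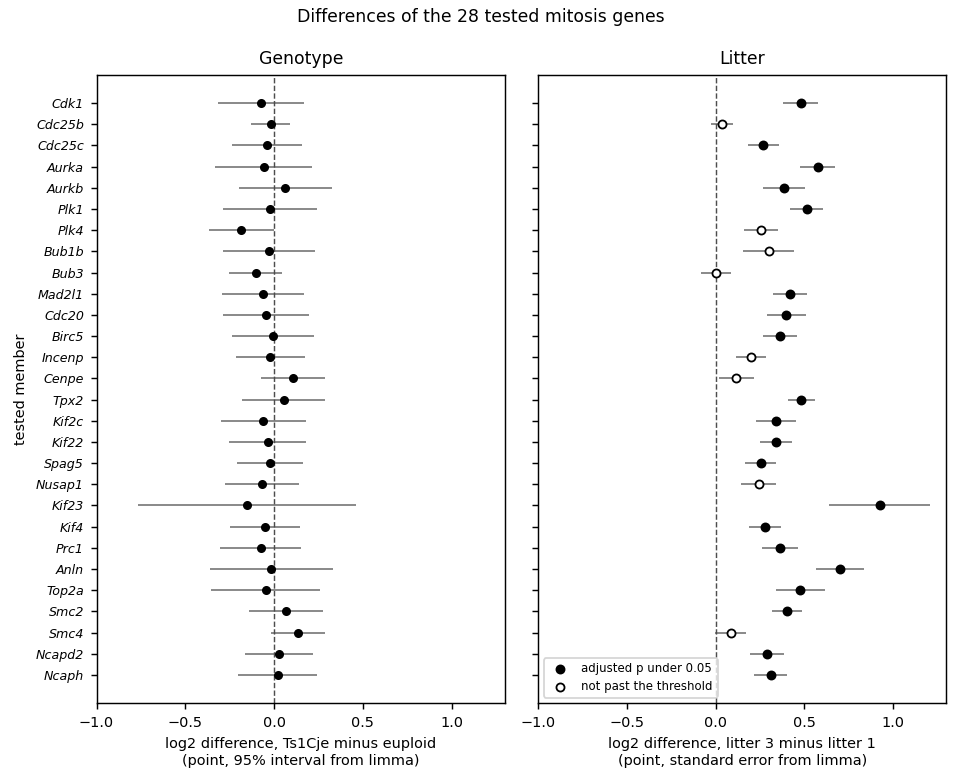
Log2 differences of the 28 tested genes, as Ts1Cje minus euploid with the 95% interval (left) and as litter 3 minus litter 1 with the standard error (right; filled points passed an adjusted p of 0.05), from limma. On the left (fit without a litter term) all 28 intervals hold 0, and on the right all 28 points lie above 0, 20 of them filled.

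The 6 genes of smallest genotype p serve as examples. Plk4, the kinase that starts centriole duplication, had a lowest, median and highest log2 signal of 6.94, 7.18 and 7.53 in Ts1Cje mice, against 7.08, 7.42 and 7.60 in euploid mice. The 2 ranges overlapped over most of their length, with a difference of -0.18 (SE 0.09, n = 9 each) and an unadjusted p of 0.051 from limma. Of the 9 Ts1Cje mice 4 lay below every euploid mouse. The Plk4 difference was -0.06 in litter 1, -0.27 in litter 2 and -0.22 in litter 3. With litter as a block in limma its unadjusted p was 0.028, and it was the only 1 of the 28 genes under 0.05, where 7.13% of all tested probes were. After adjustment 0 of the 28 passed in that fit (lowest adjusted p 0.596), where 0.593% of all tested probes did. A second Plk4 probe, under the filter, differed by 0.02.

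Smc4, an ATPase subunit of condensin, had signals of 7.34, 7.47 and 7.61 in Ts1Cje mice (lowest, median and highest), against 7.06, 7.37 and 7.72 in euploid mice. The lowest euploid values came from litter 2, where the difference was 0.36, against 0.07 in litter 1 and -0.02 in litter 3. Over all mice it was 0.13 (SE 0.07, limma unadjusted p = 0.077).

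Bub3, a checkpoint protein that binds unattached kinetochores, had signals of 8.73, 8.96 and 9.05 in Ts1Cje mice and 8.73, 9.02 and 9.25 in euploid mice, a difference of -0.10 (SE 0.07, limma unadjusted p = 0.167). Cenpe, the kinesin that carries chromosomes to the spindle equator, had 10.19, 10.32 and 10.53 in Ts1Cje mice and 9.80, 10.26 and 10.54 in euploid mice, a difference of 0.11 (SE 0.09). The Bub3 groups began at the same level, the Cenpe groups ended at nearly the same level, and both pairs of ranges overlapped. Prc1, which bundles the microtubules of the midzone, had 10.89, 11.22 and 11.41 in Ts1Cje mice and 10.89, 11.14 and 11.71 in euploid mice. Nusap1, a spindle microtubule protein, had 9.68, 9.91 and 10.25 in Ts1Cje mice and 9.75, 9.95 and 10.56 in euploid mice. Their differences were -0.08 (SE 0.11) and -0.07 (SE 0.10), each below its standard error.

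Genes that are widely used to follow dividing cells differed as little. Cdk1, the kinase that drives entry into mitosis, had signals of 8.89, 9.34 and 9.65 in Ts1Cje mice and 9.10, 9.25 and 9.90 in euploid mice. Top2a, the topoisomerase that untangles sister chromatids, had 10.07, 10.70 and 10.82 in Ts1Cje mice and 9.91, 10.47 and 11.19 in euploid mice. Bub1b, the checkpoint protein BubR1, had 8.23, 8.99 and 9.24 in Ts1Cje mice and 8.76, 8.84 and 9.15 in euploid mice. The differences of these 3 genes were -0.07, -0.05 and -0.03, with standard errors of 0.12, 0.15 and 0.12. The Top2a value is that of its brightest probe, and a second tested Top2a probe differed by 0.13. The Ts1Cje 1 and Ts1Cje 3 mice of litter 1 held the lowest Bub1b values.

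The second comparison was between litters, with genotype as a term in the fit. By the litter F test, 21 of the 28 genes (75.0%) passed an adjusted p of 0.05 (limma, Benjamini-Hochberg), where 28.2% of all tested probes did. Litter 3 had the highest mean in 27 of the 28 genes. Against litter 1, all 28 differences were positive, 20 genes were called higher and 0 lower (limma, adjusted p under 0.05; 15.3% of all tested probes were called higher and 11.9% lower), and the median difference was 0.34, a ratio of 1.27, against 0.03 over all tested probes. Against litter 2, litter 3 was higher in 27 genes, 17 of them called, with 0 called lower (12.0% and 2.62% of all tested probes), and the median was 0.33. Between litter 2 and litter 1, 0 of the 28 genes were called by limma (5.34% of all tested probes, 1.19% higher and 4.15% lower), 15 were higher in litter 2, and the median was 0.02.

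**Figure D2:**
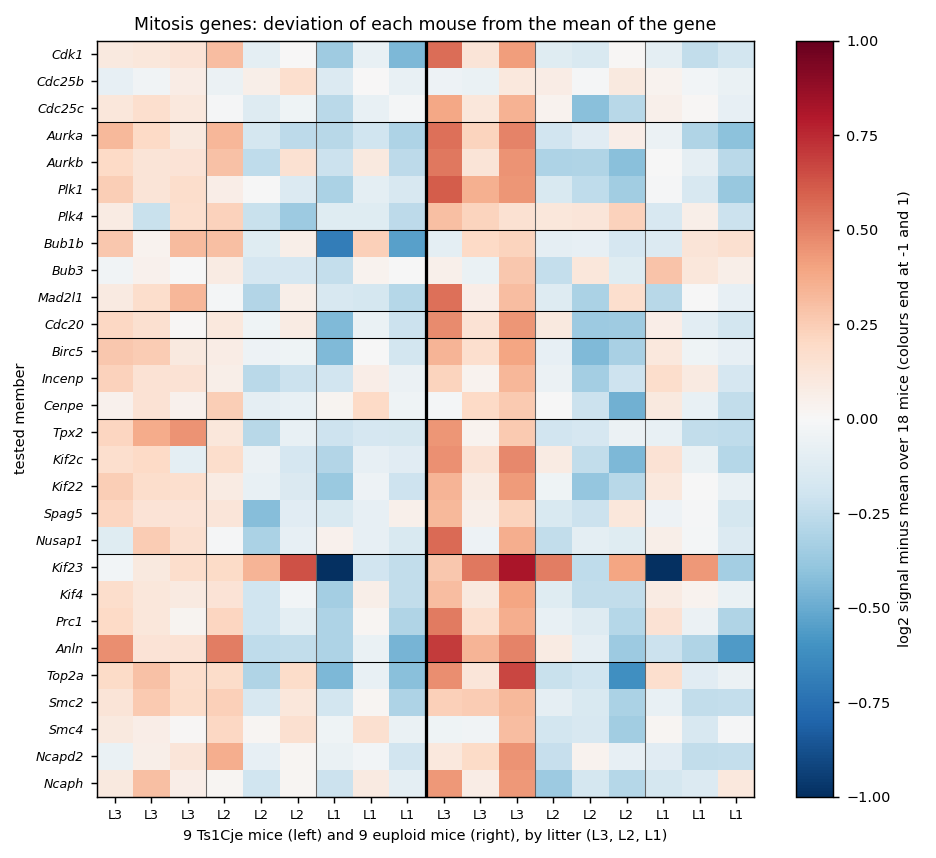
Log2 signal of each of the 28 tested genes in each mouse minus the mean of the gene over 18 mice (colour scale), with Ts1Cje mice left and euploid mice right of the thick line and litters 3, 2 and 1 in turn within each; lines across part the roles. The litter 3 columns are mostly red in both genotypes, with 23 to 28 of the genes above their own mean in every litter 3 mouse, and 1 Ts1Cje mouse of litter 2 (24 genes) has a similar column.

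The shift was present within each genotype. Litter 3 minus litter 1 had a median of 0.31 over the 28 genes in Ts1Cje mice, with all 28 above 0, and a median of 0.40 in euploid mice, with 27 above 0 (3 mice per litter and genotype, no test). Litter 3 minus litter 2 had medians of 0.15 in Ts1Cje mice and 0.46 in euploid mice. Per mouse, 23 to 28 of the 28 genes were above their own mean in the 6 mice of litter 3, whose mean level over the genes was 9.35 to 9.60. In litter 2 that mean was 9.03 to 9.38, with the top value in Ts1Cje 4 (24 genes above their mean), and in litter 1 it was 8.92 to 9.20. Ts1Cje 4 was thus the one mouse outside litter 3 within the range of litter 3, and the mice of litter 1 lay wholly below it.

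**Figure D3:**
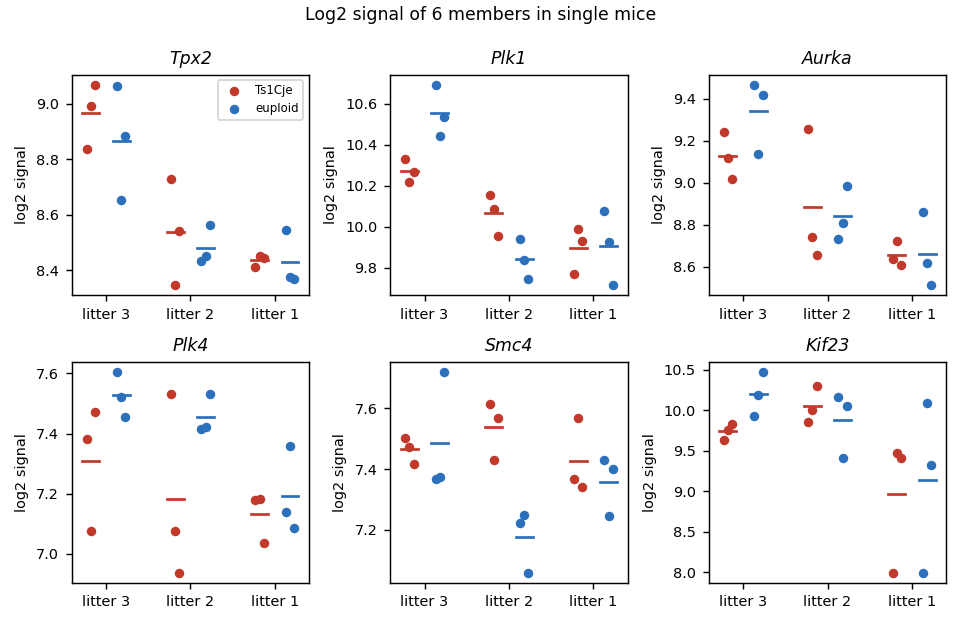
Log2 signal (vertical axis, a different range in each panel) of Tpx2, Plk1, Aurka, Plk4, Smc4 and Kif23 in single mice by litter, Ts1Cje in red and left of euploid in blue; lines are means of 3 mice. For Tpx2, Plk1 and Aurka all 6 mice of litter 3 lie above all 6 of litter 1, and the Kif23 panel shows the 2 mice of litter 1 at 7.99.

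Among the kinases and the spindle factors that switch them on, the shift was visible in single mice. Tpx2, which targets and activates Aurora A on spindle microtubules, had a lowest, median and highest signal of 8.65, 8.94 and 9.07 in litter 3, 8.35, 8.50 and 8.73 in litter 2, and 8.37, 8.43 and 8.55 in litter 1. Every mouse of litter 3 was above every mouse of litter 1, and litter 3 minus litter 1 was 0.48 (SE 0.08, n = 6 each, limma adjusted p = 0.00025). Plk1, the Polo-like kinase of mitotic entry and cytokinesis, had 10.22, 10.39 and 10.69 in litter 3, 9.74, 9.95 and 10.16 in litter 2, and 9.71, 9.93 and 10.08 in litter 1, and litter 3 did not overlap either of the others. The difference to litter 1 was 0.51 (SE 0.09). Aurka, the centrosomal Aurora kinase, had 9.02, 9.19 and 9.47 in litter 3, 8.66, 8.77 and 9.25 in litter 2, and 8.51, 8.63 and 8.86 in litter 1, with a difference of 0.57 (SE 0.10) between litters 3 and 1. Its litter 2 range reached into that of litter 3 through Ts1Cje 4. Aurkb, the kinase of the chromosomal passenger complex, differed by 0.39 (limma adjusted p = 0.020). Plk4 differed by 0.26 and missed the threshold (limma adjusted p = 0.052).

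In the cyclin-dependent kinase group, Cdk1 had signals of 9.44, 9.48 and 9.90 in litter 3, 9.20, 9.29 and 9.65 in litter 2, and 8.89, 9.13 and 9.27 in litter 1. All litter 3 mice were above all litter 1 mice, with a difference of 0.48 (SE 0.10). Of the phosphatases that activate it, Cdc25c differed by 0.27 (limma adjusted p = 0.025), and Cdc25b by 0.04 (limma adjusted p = 0.682).

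The checkpoint and anaphase genes were mixed. Mad2l1, the checkpoint protein that inhibits Cdc20, differed by 0.42 between litters 3 and 1 (SE 0.10, limma adjusted p = 0.003), while Bub1b differed by 0.30 (SE 0.14) and Bub3 by 0.00 (SE 0.08), neither past the threshold. Cdc20, the activator of the anaphase-promoting complex, had 10.16, 10.33 and 10.62 in litter 3, 9.78, 10.17 and 10.25 in litter 2, and 9.70, 10.00 and 10.22 in litter 1. Its litters overlapped at their edges and litter 3 minus litter 1 was 0.40 (SE 0.11, limma adjusted p = 0.011). The 2 further Cdc20 probes, both tested, gave 0.65 and 0.63.

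Of the passenger and kinetochore genes, Birc5 (survivin) had 10.40, 10.56 and 10.69 in litter 3, 9.85, 10.23 and 10.37 in litter 2, and 9.85, 10.23 and 10.40 in litter 1, with a litter 3 minus litter 1 difference of 0.36 (SE 0.10). The highest litter 1 mouse lay at the lowest of litter 3. Incenp, the scaffold of the same complex, passed the F test with its difference between litters 3 and 2, 0.36, rather than with that to litter 1, 0.20 (limma adjusted p = 0.010 and 0.079). Cenpe differed by 0.12 and did not pass.

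All 5 tested spindle genes passed the F test. Litter 3 minus litter 1 was 0.34 for Kif2c, which takes wrongly attached microtubules apart, 0.34 for the chromokinesin Kif22, 0.25 for Spag5 (astrin) and 0.24 for Nusap1, beside Tpx2. Nusap1 was called against litter 2 and not against litter 1 (limma adjusted p = 0.026 and 0.069).

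The 4 tested cytokinesis genes passed the F test as well. Anln, the anillin scaffold of the contractile ring, had 9.22, 9.49 and 9.78 in litter 3, 8.73, 8.92 and 9.60 in litter 2, and 8.52, 8.78 and 9.02 in litter 1. Its litter 3 minus litter 1 difference was 0.70 (SE 0.13, limma adjusted p = 0.001), with no overlap between these 2 litters. Prc1 had 11.22, 11.38 and 11.71 in litter 3, 10.91, 11.08 and 11.41 in litter 2, and 10.89, 11.02 and 11.34 in litter 1, a difference of 0.36 (SE 0.10). Kif4, a midzone chromokinesin encoded on the X chromosome, differed by 0.28.

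Kif23, the motor of the centralspindlin complex, stood apart from the rest, and was singled out after its values were seen. Its litter 3 minus litter 1 difference was 0.92 (SE 0.28; adjusted p = 0.026 in the F test of limma) and its litter 3 minus litter 2 difference 0.01. The Ts1Cje 1 and euploid 1 mice of litter 1 each had a signal of 7.99, while the other 8 mice of each genotype had 9.42 to 10.30 (Ts1Cje) and 9.32 to 10.48 (euploid). Without these 2 mice the difference was 0.40 (SE 0.18) and the F test no longer passed (limma adjusted p = 0.178), and leaving out either alone also ended the call. Its 2 other probes were under the filter, and litter 3 minus litter 1 was -0.02 and 0.11 in them.

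Among the chromosome structure genes the condensin subunits gave different calls. Smc2 had 10.76, 10.88 and 10.95 in litter 3, 10.32, 10.51 and 10.88 in litter 2, and 10.32, 10.43 and 10.66 in litter 1, with a litter 3 minus litter 1 difference of 0.40 (SE 0.08, limma adjusted p = 0.002) and no overlap between these litters. Smc4, its partner ATPase, differed by 0.09 (SE 0.08, limma adjusted p = 0.485). The condensin I subunits Ncaph and Ncapd2 differed by 0.31 and 0.29, and Ncapd2 passed this contrast (limma adjusted p = 0.028) without passing the F test (0.067). Top2a had 10.65, 10.77 and 11.19 in litter 3, 9.91, 10.31 and 10.71 in litter 2, and 10.07, 10.43 and 10.69 in litter 1, a difference of 0.48 (SE 0.14) in its brightest probe. A second tested Top2a probe gave -0.20 and did not follow the first across mice (r = -0.15), so the Top2a shift was seen in 1 of its 2 tested probes.

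For 11 of the 28 genes every mouse of litter 3 was above every mouse of litter 1, against 6.65% of all tested probes. The 7 genes not past the F test were Cdc25b, Plk4, Bub1b, Bub3, Cenpe, Smc4 and Ncapd2. Of the 21 called genes, 13 were called in each of the 18 fits that left out 1 mouse. Without euploid 7, the count was 14, with Aurkb, Cdc20, Kif2c, Spag5, Nusap1, Kif4 and Prc1 lost (highest adjusted p among these genes in any such fit 0.104, for Kif2c), and without euploid 9 it was 15; both are litter 3 mice. The share of all tested probes called was then 21.1% and 23.1%. Among the spindle genes, Kif2c was called in 9 of the 18 fits and Nusap1 in 12. The Kif2c call was lost with single mice of each litter left out.

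Whether the genotype difference itself varied with litter was tested by the interaction. The median Ts1Cje minus euploid log2 difference over the 28 genes was -0.16 in litter 3, 0.17 in litter 2 and -0.07 in litter 1, against 0.00, 0.07 and -0.04 over all tested probes. Plk1, Aurkb, Top2a, Birc5 and Cdc20, 5 of the 28 genes, had an unadjusted interaction p under 0.05, where 7.92% of all tested probes did, and 0 passed after adjustment (lowest adjusted p 0.621 by limma; 0.0442% of all tested probes). For Plk1 the differences were -0.29 in litter 3, 0.22 in litter 2 and -0.01 in litter 1. For Aurkb they were -0.21, 0.41 and -0.01 in the same order, and for Top2a -0.19, 0.37 and -0.31. In all 5 genes the Ts1Cje mean was the higher one in litter 2 alone. Litter 2 holds the 2 euploid mice with the cerebellum source name, and without them the median genotype difference over all litters was -0.10.

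The genes varied together from mouse to mouse. Over the 378 pairs of tested genes the median Pearson correlation across 18 mice was 0.63, with 96.6% of pairs positive, against a median of 0.20 over all pairs of tested probes (given as a description, since the mice share litters, slides and normalization). With genotype and litter means removed the medians were 0.46 and 0.25. Birc5 and Kif22 were the closest pair (r = 0.98, and 0.95 with these means removed), with Cdc20, Cdc25c, Kif2c and Kif4 near them. Prc1 had the highest median correlation with the other genes, 0.81, and Cdc25b the lowest, 0.04, with Plk4 (0.34) and Kif23 (0.34) also low. For correlations between mice across the genes, each gene was first set to its deviation from its mean over the 18 mice. That step by itself brings the average pair of mice below 0. On these deviations, 2 mice of the same litter correlated at a median of 0.20 (45 pairs) and 2 mice of different litters at -0.12 (108 pairs). For litter 3 with litter 1 the median was -0.29.

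**Figure D4:**
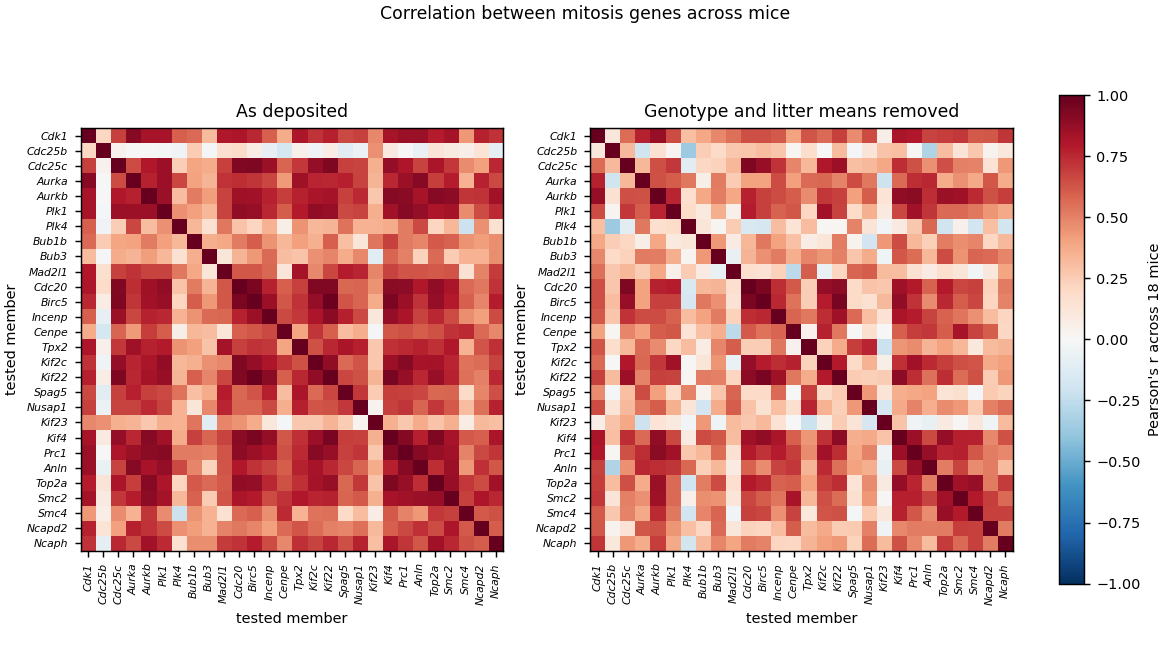
Pearson's r across 18 mice for each pair of the 28 tested genes (colour scale), with the values as deposited (left) and with genotype and litter means removed (right). The median over pairs is 0.63 on the left and 0.46 on the right, and the pale rows on both sides are Cdc25b, Plk4 and Kif23.

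Genes of neighbouring steps were followed in lists. Of 31 S phase genes (replication licensing, polymerases, nucleotide supply), 22 were tested, 19 passed the litter F test and 18 were called higher and 0 lower in litter 3 than in litter 1, with a median of 0.37. Their median correlation with the mitosis genes was 0.69, and 0.49 with genotype and litter means removed. Of 15 tested other kinetochore and passenger genes, 11 passed the litter F test, among them Sgo1, the protector of centromeric cohesion (0.41 between litters 3 and 1), and the Ndc80 complex gene Spc25 (0.57). Of 10 tested other spindle and midbody genes 6 passed, among them Ckap2l (0.41).

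In the other lists the share of genes past the litter F test lay between 20.0% and 42.9%, around the 28.2% of all tested probes. Of 10 tested genes of the anaphase-promoting complex and its regulators 2 passed, with a median of 0.04 between litters 3 and 1, of 9 cohesin and other condensin genes 2 (median 0.12), of 14 transcription factors of the cell cycle 6 (median 0.21), of 5 other regulators of mitotic entry 1 (median 0.05) and of 4 CDK inhibitors 1 (median 0.11). For genotype, none of the genes in these 8 lists had an unadjusted p under 0.05. Nearest to it in the S phase list was the polymerase gene Pold1, with a difference of -0.15, and in the kinetochore list Sgo1, with -0.22.

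**Figure D5:**
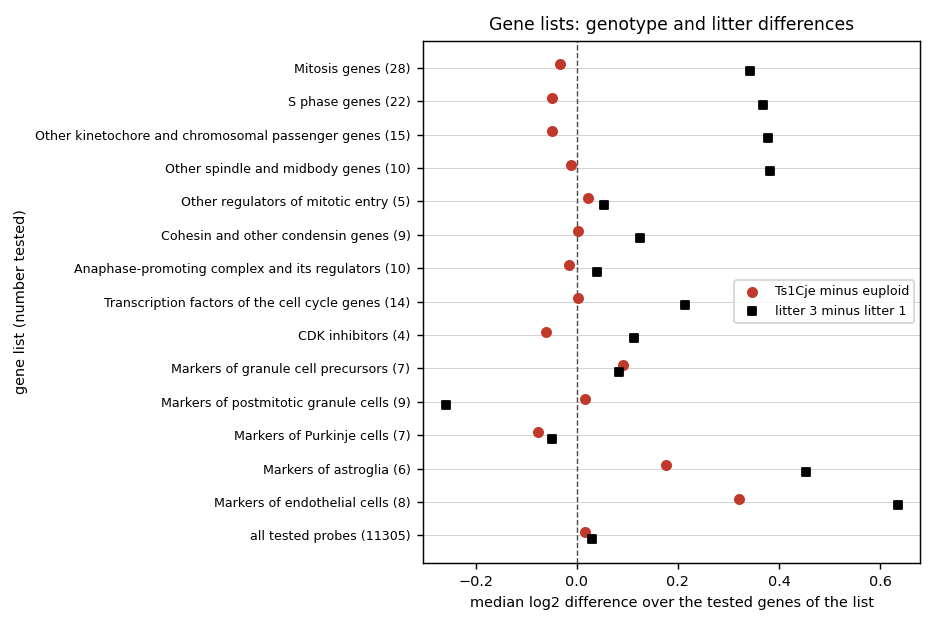
Median log2 difference over the tested genes of each list (number tested in parentheses), as Ts1Cje minus euploid (red circles) and litter 3 minus litter 1 (black squares). The mitosis genes lie at -0.03 for genotype and 0.34 for litter, next to the S phase, kinetochore and spindle lists, while the markers of endothelial cells lie at 0.32 and 0.63 and those of postmitotic granule cells at 0.02 and -0.26.

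Markers of some other cell types also moved with litter, and their part in the shift of the mitosis genes was not tested. Over all tested probes 15.3% were called higher and 11.9% lower in litter 3 than in litter 1. All 8 tested endothelial markers were called higher in litter 3 than in litter 1 (median 0.63), and their mean level was 8.65 to 9.52 in litter 3, 8.27 to 8.80 in litter 2 and 8.18 to 8.85 in litter 1. Of 6 astroglial markers 5 were called higher (median 0.45), with mean levels of 10.89 to 11.43 in litter 3, 10.30 to 10.92 in litter 2 and 10.32 to 10.80 in litter 1. Of 9 markers of postmitotic granule cells 5 were called lower in litter 3 than in litter 1 (median -0.26), with mean levels of 10.33 to 10.61 in litter 3, 10.29 to 10.71 in litter 2 and 10.66 to 10.80 in litter 1. Of 7 markers of granule cell precursors 2 were called higher and 1 lower (median 0.08). Of 5 markers of the oligodendrocyte lineage 2 were called higher and 0 lower (median 0.23). Of 7 Purkinje cell markers 0 were called higher and 2 lower (median -0.05), and of 3 markers of GABAergic interneurons 0 were called (median -0.03). Atoh1, the defining transcription factor of granule cell precursors, was not among the tested precursor markers. Tested were 7 of 13 listed precursor markers and 9 of 12 listed postmitotic granule cell markers. The marker lists were compared between litters and genotypes only, and the identity of the layer was not tested.

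Across mice, the correlation of the mitosis genes with endothelial, astroglial and postmitotic granule cell markers lay nearer 0 with litter and genotype means removed. The background was not 0: over all pairs of tested probes the median was 0.20 as deposited and 0.25 with these means removed. The median correlation of the mitosis genes was 0.49 with the endothelial markers and 0.47 with the astroglial markers. With genotype and litter means removed these were 0.09 and 0.12. With the postmitotic granule cell markers it was -0.24, and 0.01 with these means removed. With the Purkinje cell markers it was -0.01, and 0.16 with the means removed. With the markers of granule cell precursors it was 0.28, and 0.20 with the means removed. The endothelial markers had a genotype median of 0.32, where the mitosis genes had -0.03. The endothelial mean level was 8.87 ± 0.43 in Ts1Cje mice and 8.54 ± 0.26 in euploid mice (SD, n = 9 each). Genotype medians were 0.18 for the astroglial, 0.12 for the oligodendrocyte lineage and 0.09 for the granule cell precursor markers. They were 0.02 for postmitotic granule cell, -0.01 for GABAergic interneuron and -0.08 for Purkinje cell markers, against 0.02 over all tested probes. No microglial marker was bright enough to be tested (0 of 7 on the array).

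Markers of the tissues that border the layer had wider ranges. Of 11 meningeal markers on the array 1 was tested, the proteoglycan gene Dcn, with 8.96 ± 1.81 in Ts1Cje mice and 7.32 ± 1.71 in euploid mice (SD, n = 9 each). Its genotype difference of 1.64 (SE 0.73) had an unadjusted p of 0.036 and an adjusted p of 0.998 in limma, and its signals were 5.85 to 10.98 in litter 3, 5.60 to 9.78 in litter 2 and 5.46 to 9.57 in litter 1, a difference of 1.5 between litters 3 and 1 (limma adjusted p = 0.141). Of the 2 tested choroid plexus markers, Ttr, the transthyretin gene, was called higher in litter 3 than in litter 1 by 3.1 (SE 0.73, limma adjusted p = 0.004), with a genotype difference of 0.01, and Otx2 differed by -0.16 between these litters and was not called. The part of these tissues in the shift of the mitosis genes was not tested either.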

How the data were processed

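Each array measured RNA of the EGL of 1 mouse. Per the study's methods, the authors divided out array brightness with the average signal of all 18 arrays; the deposited values of 46632 probes are log2 signals. They were used as deposited. Probes were named from the platform annotation, with symbols updated through Entrez identifiers (29921 of 29976 probes with 1 symbol matched; 10 had several symbols and 16646 none). The 11305 probes of highest mean signal (mean log2 of 7.14 or more), the number of expressed genes the study counted, were tested with limma 3.58.1 in R 4.3.3: genotype without a litter term, following the study's tests between genotypes, litter with genotype as a term (F test and contrasts), and their interaction, with Benjamini-Hochberg adjustment over all tested probes and a threshold of 0.05. Correlations, counts and promoter searches used Python 3.11.15 (numpy 2.4.6, pandas 2.3.3). The fits were tested on simulated data. No 2 arrays held identical values.

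The 44 genes, the pathway and marker lists and the tests were chosen with earlier results of these data known. Values of single mice are given for the brightest gene of each role, the 6 genes of smallest genotype p, the 6 of smallest litter p and a few fixed genes; other pathway genes are named only where they had 1 of the 2 smallest genotype p of their list. Alternatives were other normalizations, filters, probe rules, a background subtraction, litter as a block, left-out litters and arrays, and the methods' t-test. Leaving out single mice, the 2 euploid arrays of smallest spread, or the 2 mice with a dim Kif23 probe was added after the data were seen. Mice are separate animals, but litters, not mice, were the unit of breeding, so p-values for litter compare these 3 litters only.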

Additional observations from a re-analysis of the deposited data

Results flagged for a closer look

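Of 56 groups (28 genes in 9 Ts1Cje and 9 euploid mice), 2 held a mouse far from the others, and chance alone marks about 1 in 20 groups. Both were Kif23, the centralspindlin motor gene. In Ts1Cje mice, Ts1Cje 1 had a log2 signal of 7.99, where the other 8 mice had 9.42 to 10.30. In euploid mice, euploid 1 had 7.99, where the other 8 mice had 9.32 to 10.48. Both are mice of litter 1, hybridized on the same slide, and the other 2 Kif23 probes were under the brightness filter.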

How the results depend on the processing

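None of the 28 genes passed an adjusted genotype p of 0.05 under any alternative run. The count at an unadjusted limma p under 0.05 was 0 as reported, and the share of all probes of each fit stands in parentheses (3.95% as reported). It was 2 after quantile normalization (Bub3 and Plk4, 6.88%). Only Plk4 was under it without a filter (5.01%), with the 15000 brightest probes (4.44%), with litter as a block (7.13%) and without litter 1 (4.58%). Only Smc4 was under it without litter 3 (4.02%). Only Bub3 was under it once the pair of euploid arrays with the narrowest spread was dropped (5.04%). The count was 0 to 1 when each mouse was left out. The median genotype difference ran between -0.12 without litter 2 and 0.02 without litter 3, and between -0.07 and 0.01 with each mouse left out. The number of genes lower in Ts1Cje mice ran between 11 and 25 of 28 in the alternatives that tested all 28. The litter F test called 18 (mean over the probes of a gene) to 23 genes (15000 brightest probes). With each mouse left out it called 14 (without euploid 7, 21.1% of all tested probes) to 22 (without Ts1Cje 4, 33.2%). The median litter 3 minus litter 1 difference was 0.28 to 0.36 over the processing alternatives and 0.30 to 0.38 with each mouse left out. The median correlation between genes was 0.58 to 0.68. No result changed its direction past a threshold. Genes under the brightness filter limit what could be tested, Ccna2 and Ccnb2 among them.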
